A study of Mus musculus with 4 samples.

Results

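MicroRNA genes that lie close to a Trim33 summit in mouse T helper 17 (Th17) cells are described here. The set holds 76 of the 1136 RefSeq genes of biotype miRNA on chromosomes 1 to 19 (mm10), which is 6.69%. The genes were chosen by the measured positions of the Trim33 peaks: a gene entered when a deposited summit lay in it or within 1000 bp of it. Nearness to a summit is therefore a description here, with no test. The peak list has 27050 regions, and 86 summits, 0.323% of the 26631 on those chromosomes, lay near the 76 genes. The series has 2 Trim33 chromatin immunoprecipitation (ChIP-seq) libraries and 2 input DNA libraries without antibody. All came from C57BL/6 naive CD4+ T cells of spleen and lymph nodes, which were grown on plates coated with antibodies to CD3 and CD28, with IL-6, TGF-b and antibodies to IL-4 and IFN-g. Peaks were called on the merged Trim33 libraries, so each peak has 1 value with no spread, and no test between samples was possible. The labels do not say whether the libraries came from separate cultures or animals. A peak's height in such bulk cells cannot tell how many cells have Trim33 at the site from how much each has. Whether the cells carried Th17 markers cannot be read from a peak list.

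MicroRNAs are short RNAs that guide Argonaute proteins to messenger RNAs and lower their translation or stability. Most are cut from a hairpin in a longer transcript, first by Drosha with Dgcr8 in the nucleus and then by Dicer in the cytoplasm. The hairpin may sit in an intron of a protein-coding gene, in a long noncoding RNA, or in a transcript of its own, and the promoter can be far from the hairpin. Pairing with targets rests mainly on the seed, bases 2 to 8 of the mature strand. Trim33 is a ubiquitin ligase with chromatin-reading domains that works with SMAD proteins of the TGF-beta pathway, which Th17 cells need to form. Several microRNAs act in T cells, among them miR-155, which is induced on activation and promotes Th17 responses.

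The mature sequences below come from RefSeq (GRCm38.p6), where 67 of the 76 genes had one. Capitals mark the seed. The first group holds microRNAs with roles in T cells and other blood cells, shown because they are the members best known there.

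mmu-miR-155-5p: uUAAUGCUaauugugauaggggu

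mmu-miR-142a-5p: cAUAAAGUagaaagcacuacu

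mmu-miR-142a-3p: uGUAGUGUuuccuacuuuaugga

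mmu-miR-210-3p: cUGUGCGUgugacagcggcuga

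mmu-let-7i-5p: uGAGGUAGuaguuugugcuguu

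The second group is shown because members carry the same seed, at different places except for the neighbours Mir34b and Mir34c. The seed GGCAGUG was found in miR-34b-5p and miR-449c-5p, whose genes lie on chromosomes 9 and 13. The seed AUCACUA joined both 3p strands of the Mir34b and Mir34c pair. The seeds GGGCUGG and GGGCCUG each joined 2 members at separate loci, on chromosomes 7 and 15 and at distant places on chromosome 2.

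mmu-miR-34b-5p: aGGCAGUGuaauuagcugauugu

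mmu-miR-449c-5p: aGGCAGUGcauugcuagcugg

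mmu-miR-34b-3p: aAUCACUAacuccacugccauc

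mmu-miR-34c-3p: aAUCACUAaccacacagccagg

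mmu-miR-762: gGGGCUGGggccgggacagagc

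mmu-miR-7648-3p: aGGGCUGGgcccgggacgcgg

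mmu-miR-2861: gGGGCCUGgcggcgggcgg

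mmu-miR-3091-3p: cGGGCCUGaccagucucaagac

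The third group holds members whose peaks were among the 15 highest of the set.

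mmu-miR-484: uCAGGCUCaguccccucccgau

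mmu-miR-688: uCGCAGGCgacuacuuauuc

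mmu-miR-7075-5p: cGGGGAGGaggacaugguuuu

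mmu-miR-28a-5p: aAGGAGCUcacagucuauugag

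mmu-miR-129-5p: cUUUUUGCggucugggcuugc

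Mir155 on chromosome 16 (84714140 to 84714204) had a single summit, 766 bp upstream of the hairpin. The authors' fold enrichment, the signal at the summit over the peak caller's background, was 6.65 there, and the −log10 q was 16.3. The peak (84713078 to 84713491) lay inside Mir155hg, the noncoding host transcript, with the summit 351 bp from its annotated start. The nearest end of a protein-coding gene was 4907 bp away, so this summit counts for no coding gene within 1000 bp. Within 50 kb of Mir155 there were 5 summits, the highest with 13-fold enrichment at 21079 bp from the hairpin.

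Mir142 on chromosome 11 (87756864 to 87756927), which marks blood cells, overlaps Mir142b on the opposite strand, and both share 1 summit 315 bp upstream of Mir142. Its enrichment was 3.71-fold and it ranked 25538 by fold among the 27050 peaks, so it is one of the weaker peaks of the list. The surroundings held many others: 9 summits lay within 10 kb and 13 within 50 kb, up to 11.1-fold. The nearest coding gene end was 1645 bp from the summit.

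Mir210 on chromosome 7 (141221384 to 141221493), which hypoxia induces, had a 7.22-fold summit 485 bp upstream of the hairpin and 3320 bp from the nearest coding end. Mirlet7i on chromosome 10 (122985640 to 122985724), a gene of the let-7 family that restrains growth and lineage programmes, had summits on both sides. The upstream summit, 253 bp away, had 5.79-fold enrichment in a peak of 605 bp. The downstream summit, 67 bp away, had 3.43-fold enrichment. No coding gene end lay within 1000 bp of either.

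**Figure D1:**
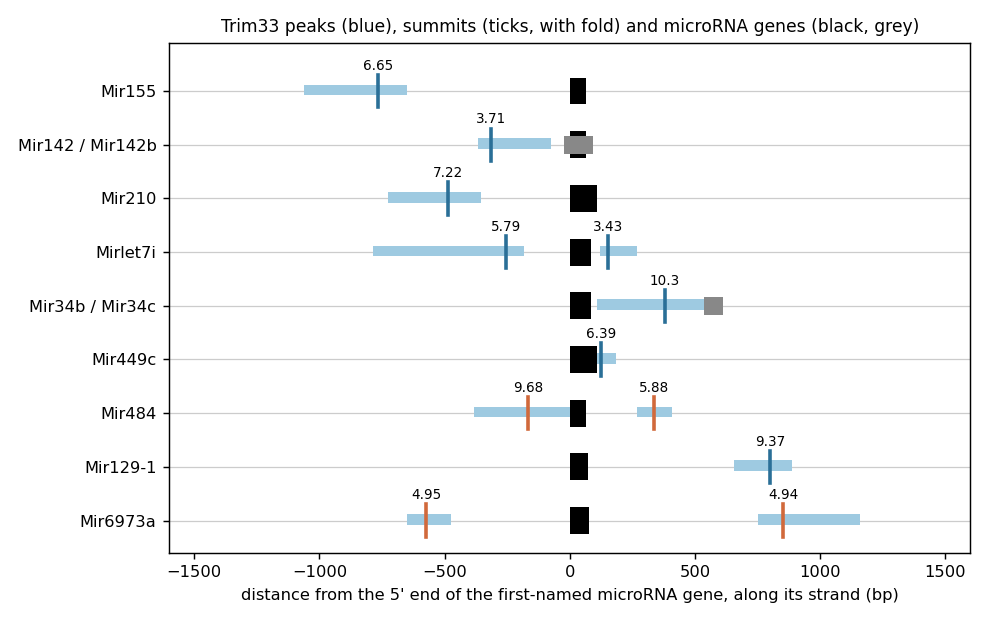
Trim33 peaks (blue bars), their summits (ticks, orange within 1000 bp of a protein-coding gene end and dark blue otherwise) and microRNA genes (black for the first named, grey for its partner) at 9 loci. The horizontal axis is the distance in bp from the 5′ end of the first-named gene along its strand, and the number above each tick is the authors' fold enrichment. Mir155, Mir142 and Mir210 have 1 summit each, upstream of the hairpin, and the Mir34b and Mir34c summit of 10.3-fold lies between the hairpins.

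The Mir34 genes are known targets of p53, and the Mir34 and Mir449 families are both known from ciliated cells. Mir34b and Mir34c on chromosome 9 share 1 summit at 51103265, between the hairpins, with 10.3-fold enrichment (rank 2699 of 27050). It lay in the overlap of the coding genes Hoatz and Btg4, 1118 bp from the nearest gene end in the table. Mir449c on chromosome 13, in Cdc20b, had a 6.39-fold summit 17 bp downstream of the hairpin and 729 bp from an annotated start of Cdc20b. Its neighbour Mir449a, with the same GGCAGUG seed, lay 1426 bp from that summit, and Mir34a, the remaining gene with this seed in the RefSeq table, lay 59401 bp from its nearest summit. So 2 of the 4 genes with this seed among the mature strands of the table were members. For Mir34c, itself a member, the table held only the strand with the seed AUCACUA. The seed of its other strand was not read, so this count may be too low.

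The highest peak of the set lay near Mir1893 on chromosome 18, in Epc1, a subunit gene of a histone acetyltransferase complex. Its summits had 11.5-fold enrichment at 497 bp and 8.73-fold at 271 bp from the microRNA gene, over 25 kb from the nearest coding end. The first of these ranked 1775 of 27050 by fold, and no member lay near any of the higher peaks. Mir688 (10.3-fold, 123 bp from the start of the mitochondrial ATP synthase gene Atp5g2) and Mir7075 (10.1-fold, in the telomere-binding factor gene Terf2) were the others with the Mir34 pair at 10-fold or more. In all 5 members reached 10-fold.

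Mir484 on chromosome 16 (14159626 to 14159692), known from capped precursors made without Drosha, had 2 summits. The 9.68-fold summit lay 167 bp upstream of Mir484 and, on the other strand, 185 bp upstream of the start of Marf1. The 5.88-fold summit lay 270 bp downstream. Further members among the highest were Mir28a in Lpp (9.59-fold) and Mir7654 in Arglu1 (9.59-fold, 3 bp from a coding end). Mir3569 in the noncoding Gm32082 reached 9.52-fold, 264 bp from a coding end, and Mir129-1 reached 9.37-fold, 36801 bp from one. Mir5627 reached 9.34-fold beside Dnajb9. Mir7671 reached 9.3-fold at 5969 bp from the start of Irf1, an interferon response factor, and Gm51281 and Mir8105 reached 8.66-fold and 8.52-fold.

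**Figure D2:**
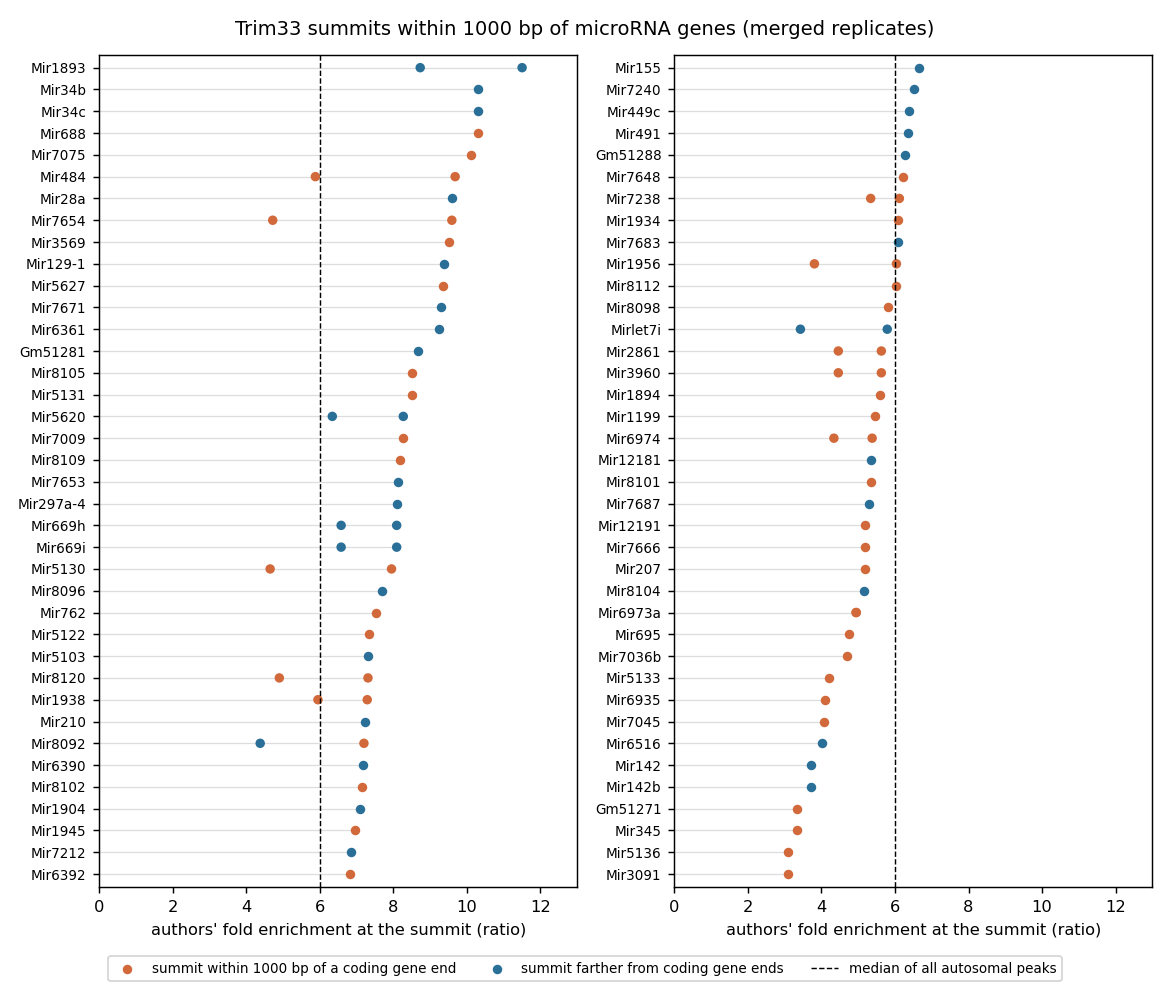
Authors' fold enrichment (horizontal axis, ratio) of every summit within 1000 bp of the 76 microRNA genes, 1 row per gene, in order of its highest summit. Orange points are summits within 1000 bp of a protein-coding gene end, blue points are farther away, and the dashed line is the median of 6 over all peaks of chromosomes 1 to 19. Values run from 3.08 (Mir3091) to 11.5 (Mir1893).

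Summits lay close to the hairpins as the rule requires, with a median distance of 293 bp. The summit was inside the microRNA gene for 6 members: Mir669h, Mir669i, Mir6361, Mir1938, Mir7666 and Mir5133. Their inside summits had 6.58-, 8.09-, 9.24-, 5.95-, 5.19- and 4.2-fold enrichment. In all, 22 members had a summit within 100 bp, and 20 had their nearest over 500 bp away. Just inside the limit were Mir7240 (994 bp, 6.53-fold), Gm51271 (977 bp, 3.35-fold) and Mir6935 (969 bp, 4.1-fold). Just outside were Gm51276 (1020 bp, 5.79-fold), Mir7655 (1074 bp, 9.89-fold) and Mir1907 (1089 bp, 6.81-fold). There is no gap in distance at the limit.

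There were 59 members with 1 summit and 17 with 2, which makes 93 pairs of gene and summit. Of these pairs, 55 had the summit upstream of the hairpin along its strand, 26 downstream, 6 inside and 6 had no strand in the RefSeq sequence table. The same split was not measured for nearest summits of all microRNA genes, so it shows no preference of the members. The 76 genes formed 70 loci when genes at most 10 kb apart were joined, and 63 of these loci held a single microRNA gene. Only 6 summits were shared, by 9 members. Mir2861 and Mir3960 beside Cdk9, a kinase gene for transcription elongation, shared both of theirs (5.63- and 4.46-fold).

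The Sfmbt2 cluster on chromosome 2 stood apart in size, with 72 microRNA genes in repeated units inside the Polycomb gene Sfmbt2. Of these, 3 were members: Mir297a-4, Mir669i and Mir669h, around summits of 8.09- and 6.58-fold. Copies in this cluster are near-identical, and how reads with several matches were placed is not given in the sources used here, so the position of these summits is uncertain. Without the cluster the share was 6.86% (73 of 1064 genes).

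Host genes were noted for each member. A protein-coding gene enclosed 47 members (61.8%), against 68.8% of all microRNA genes (781 of 1136). A further 5 lay in a noncoding host and 24 in no annotated host. Where both strands were in the tables, 34 of 39 hosted members lay on the strand of a host and 5 on the opposite strand. Mir34b and Mir34c have hosts on both strands, Hoatz and Btg4, so they could only count among the 34. The same share over all hosted microRNA genes was not measured, so this is no trait particular to the members. Hosts with immune roles were Ltb and Lta, which encode the lymphotoxin subunits, and Slamf7, a receptor of lymphocytes. Mir6973a in Ltb had summits of 4.95- and 4.94-fold, Mir6974 in Lta of 5.38- and 4.34-fold, and Mir7683 in Slamf7 of 6.07-fold. Chromatin genes also served as hosts: Mir8101 in the deacetylase gene Hdac5 (5.34-fold), Mir7045 in the remodeller gene Chd4 (4.06-fold) and Mir7687 in Gse1 (5.3-fold). The translation genes Eif4e and Rps21 hosted Mir1956 (6.04- and 3.81-fold) and Mir3091 (3.08-fold).

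Many of the summits may as well be counted for a protein-coding gene. For 44 of the 76 members (57.9%) a summit also lay within 1000 bp of a protein-coding gene end, and 32 had none there. Of the 86 summits, 53 (61.6%) were at a coding end, against 27.6% of all autosomal peaks (7348 of 26631). Annotated start sites from the RefSeq promoter table, which matched 16457 of 20665 coding genes, lay within 1000 bp of the summit for 37 of these 44 members. For 4 more members a summit lay at an internal coding start, away from the outer gene ends. Another 2, Mir155 and Mir6516 in Snhg20, were at the start of a noncoding gene. The remaining 26 were at none of these, including 2 members on chromosome 18, where start sites were not used.

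The share of microRNA genes with a summit is given by place as a description, since summits chose the members. Of 144 microRNA genes within 1000 bp of a coding end, 40 were members (27.8%), and of 992 farther away, 36 were members (3.63%). Inside coding genes the share was 6.02% (47 of 781), and outside them it was 8.17% (29 of 355). Of all microRNA genes 12.7% lay within 1000 bp of a coding end, and of the members 52.6% did. For comparison, 34.6% of protein-coding genes (7156 of 20665) held a summit near either end, within the same 1000 bp, as did 13.2% of lncRNA genes (1636 of 12408). Other short RNA genes, measured as the microRNA genes were, had shares of 2.95% (38 of 1286 snoRNA genes), 4.62% (43 of 931 snRNA genes) and 18.4% (72 of 391 tRNA genes).

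**Figure D3:**
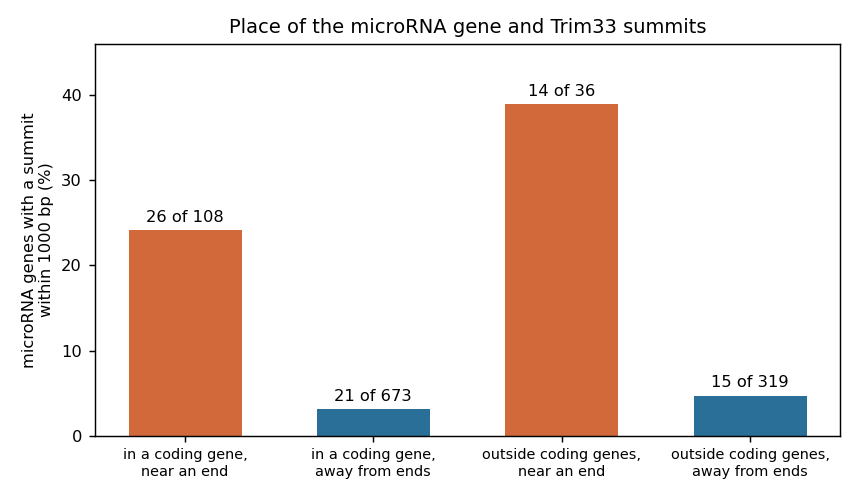
Share of microRNA genes with a Trim33 summit within 1000 bp (vertical axis, %), by whether the microRNA gene lies in a protein-coding gene and within 1000 bp of a coding gene end. Bars are shares, with the counts above them and no error, since there is 1 merged peak list. The share is 24.1% and 38.9% near coding ends, against 3.12% and 4.7% away from them.

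Fold enrichment was not used by the rule, and is described here beside all peaks. The median near microRNA genes was 6.25 (quartiles 5.16 and 7.89) against 6 (4.88 and 7.77) for all autosomal peaks, and 49 of 86 (57%) were above the median of the whole list. The upper tail was shorter: 4 of 86 peaks (4.65%) reached 10-fold, against 11.1% of all autosomal peaks (2968 of 26631). At coding ends the median was 5.82 (n = 53) against 5.8 for all peaks at such ends. There 24 of the 53 (45.3%) were above the median of the whole list, against 46.7% of all peaks at coding ends. Away from coding ends the median was 6.85 (n = 33) against 6.07 for all such peaks. Of these 33, 25 (75.8%) were above the median of the whole list, against 51.3% of all such peaks (9895 of 19283). The median peak width was 286 bp against 227 bp. No test was made over peaks, which are not replicates.

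**Figure D4:**
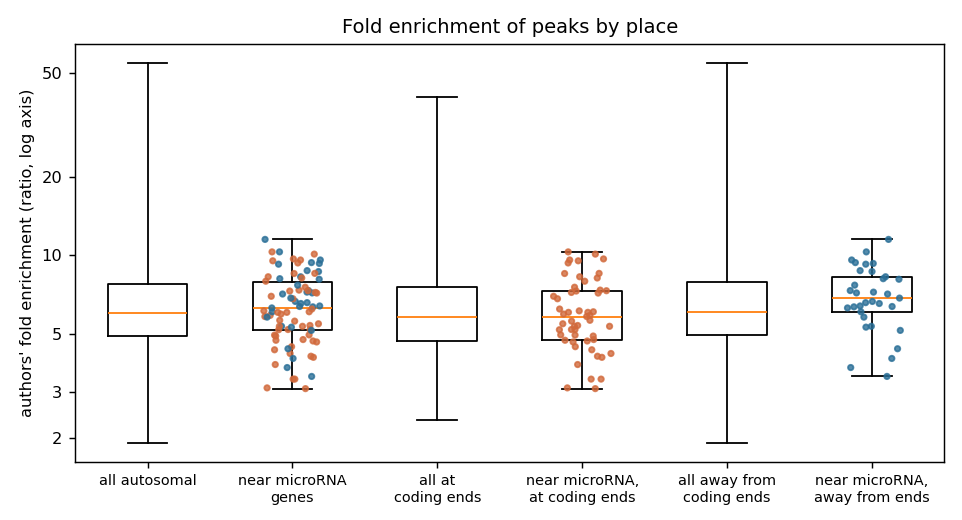
Authors' fold enrichment (vertical axis, ratio on a log scale) of all autosomal peaks and of peaks near microRNA genes, together and divided by nearness to protein-coding gene ends. Boxes give the quartiles and median, whiskers the full range, and points the single peaks near microRNA genes. The medians lie between 5.8 and 6.85, and no peak near a microRNA gene exceeds 11.5.

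The hairpins of members were rich in G and C. The median GC content was 61.8% over the 66 members with a hairpin sequence, against 52.3% over 919 microRNA genes. Members with a summit at a coding end had a median of 67.7% (n = 41) and the others 50.9% (n = 25). By the place of the microRNA gene itself, members within 1000 bp of a coding end had 67.9% (n = 37) and members farther away 55.4% (n = 29). All microRNA genes within 1000 bp of a coding end had 59.4% (n = 125), and those farther away 51.6% (n = 794). By the place of the gene, the members' medians were above those of all microRNA genes in both places. The members without a summit at a coding end, at 50.9%, were not above the 52.3% of all microRNA genes. The part of GC content in the peaks was not tested. High-numbered microRNAs, which were named later, made up much of the set. By gene symbol, 53 members (69.7%) had a number of 1000 or more, against 55.4% of all microRNA genes. Of these 53, 37 had a summit at a coding end, against 7 of the other 23. How many of all high-numbered microRNA genes lie near a coding end was not counted. This split therefore has no share over all microRNA genes beside it. Gm51271, Gm51281 and Gm51288 count among the other 23, since their symbols hold no microRNA number. Their mature names, miR-12192, miR-12205 and miR-12182, are high-numbered too.

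Promoter sequence was read where a member's summit lay in the RefSeq window, which runs from 250 bases before to 50 after a start. This was so for 40 windows. Their 250 bases before the start had a median GC content of 64.2%, against 52.4% over 31365 windows. Motifs were searched on both strands: CAGAC of SMAD proteins, TGANTCA of AP-1 and TTCNNNGAA of STAT proteins, where N is any base. CAGAC was in 19 of the 40 (47.5%, against 42.1% of all windows), TTCNNNGAA in 4 (10%, against 7.06%) and TGANTCA in 0 (against 6.77%). Some windows overlap and share a summit, so the 40 windows stand for 32 summits. With only the window whose start is nearest to each summit, CAGAC was in 16 of 32 (50%), TTCNNNGAA in 4 (12.5%) and TGANTCA in 0. A match is a description of letters and not a bound site.

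The windows of 3 genes are shown, for the hosted member with the highest peak in a window (Terf2, host of Mir7075, at the start nearest the summit), for the divergent pair of Mir484 and Marf1, and for the lymphotoxin host of Mir6973a. Capitals mark CAGAC or TTCNNNGAA on either strand, and each runs 5′ to 3′ along the gene's strand up to the base before the start (GRCm38.p6). The windows are chr8:107096546-107096795 (minus strand), chr16:14159275-14159524 (minus strand) and chr17:35194257-35194506 (plus strand).

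Terf2: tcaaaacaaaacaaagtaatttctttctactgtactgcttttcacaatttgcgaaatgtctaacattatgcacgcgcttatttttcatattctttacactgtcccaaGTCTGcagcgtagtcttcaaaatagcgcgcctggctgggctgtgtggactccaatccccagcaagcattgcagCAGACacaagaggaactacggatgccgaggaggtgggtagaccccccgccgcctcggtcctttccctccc

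Marf1: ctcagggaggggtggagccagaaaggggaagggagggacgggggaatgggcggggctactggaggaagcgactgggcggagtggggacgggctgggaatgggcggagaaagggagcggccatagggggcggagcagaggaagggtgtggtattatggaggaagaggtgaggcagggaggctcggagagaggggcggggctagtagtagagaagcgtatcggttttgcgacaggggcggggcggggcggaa

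Ltb: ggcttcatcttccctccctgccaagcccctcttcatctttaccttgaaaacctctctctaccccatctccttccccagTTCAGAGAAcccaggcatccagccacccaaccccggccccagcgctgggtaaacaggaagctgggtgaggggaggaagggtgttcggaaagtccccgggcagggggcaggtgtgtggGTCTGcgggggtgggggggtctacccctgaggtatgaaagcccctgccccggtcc

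The Terf2 summit lay 5 bp after the start and so just past the end of the printed run. The Marf1 summit lay 185 bp before its start, in a run that held none of the 3 motifs. The Ltb summit of 4.95-fold lay 108 bp before its start, and its run held 1 CAGAC and 1 TTCNNNGAA match.

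Most of the listed microRNA genes were not members, as was so for microRNA genes at large. Of 75 genes in 8 lists of widely expressed and blood microRNAs, 4 had a summit within 1000 bp (5.33%), beside 6.69% of all microRNA genes. These were Mir155, Mir142 and Mir210 of the 19 T cell activation and effector genes, and Mirlet7i of the 10 let-7 genes. Of 32 genes in 3 lists of muscle, brain, liver and epithelial microRNAs, 1 had one, the brain microRNA gene Mir129-1. Among single lists the T cell list thus had 15.8%, let-7 10% and brain 9.09%, on counts of 3, 1 and 1 gene. No other list had a member, among them those of miR-15 and miR-16, of miR-29, miR-30 and miR-26, and of miR-125 and miR-99. The 3 tissue lists together had 3.12%, beside the 5.33% of the 8 lists. The median distance to the nearest summit was 7970 bp in the first 8 lists, 39000 bp in the other 3 and 19491.5 bp over all microRNA genes. Single lists overlapped. In the first 8 the medians ran from 2110 bp (miR-17-92 and paralogs) to 43100 bp (miR-181) and 80100 bp (miR-125 and miR-99). In the other 3 they ran from 22300 bp (liver and epithelium) to 43000 bp (brain).

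The other 16 genes of the T cell list lay at widely different distances, from 1661 bp (Mir21a) to 147338 bp (Mir10a). Mir21a, which TGF-beta signalling raises, had a 7.24-fold summit nearest. Mir146, a brake on NF-kB signalling, lay 2802 bp from a summit of 4.65-fold, and Mir146b lay 4109 bp from one of 4.91-fold. The miR-17-92 cluster, which favours T cell growth and survival, had 1 summit of 7.13-fold ahead of it, at 1478 bp from Mir17, 1658 bp from Mir18 and 1807 bp from Mir19a. Mir23a, Mir27a and Mir24-2, which act in helper T cells, lay 3887 to 4184 bp from a 7.22-fold summit, and their paralogs up to 15163 bp from theirs (Mir24-1). The miR-181 genes, which tune T cell receptor signalling, ran from 7669 bp (Mir181c) to 73927 bp (Mir181a-2). The tissue lists also spread widely. Muscle genes ran from 17328 bp (Mir133b) to 98954 bp (Mir208b), and brain genes other than Mir129-1 from 2329 bp (Mir219a-1) to 1349032 bp (Mir137). Liver and epithelial genes ran from 5740 bp (Mir141) to 135676 bp (Mir203). Promoters of microRNAs can lie far from the hairpin, so a distance over 1000 bp does not show that a microRNA's promoter lacks Trim33.

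**Figure D5:**
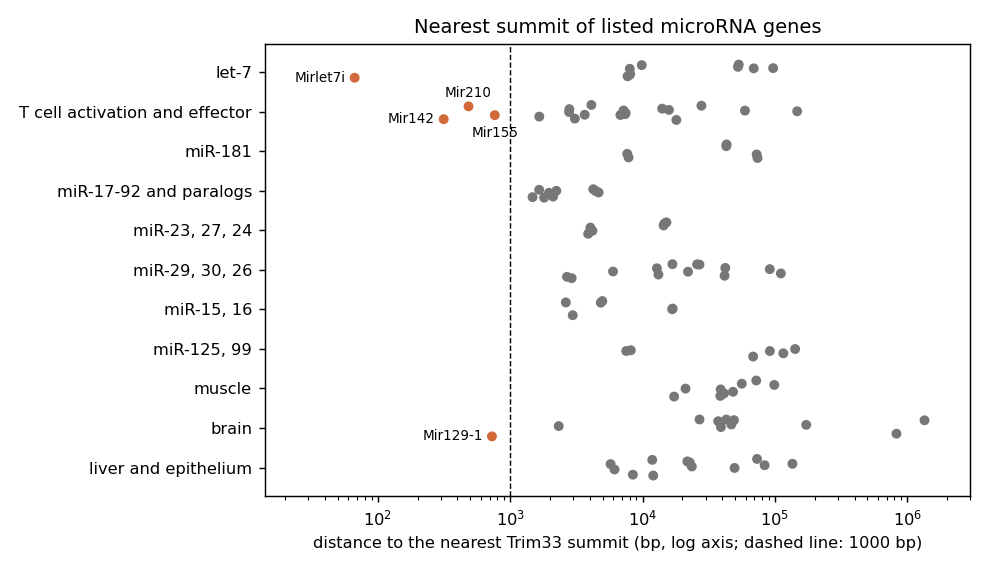
Distance from listed microRNA genes to the nearest Trim33 summit (horizontal axis, bp, log scale), 1 point per gene and 1 row per list. Orange points are the 5 genes within 1000 bp (dashed line), and grey points the others. Mir17 and the genes beside it lie just past the line, and the muscle genes lie over 10 kb away.

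Genes for the proteins that make and use microRNAs were looked up in the same way. Of 24 such genes, 12 (50%) held a summit at an end, by the same 1000 bp limit, beside 34.6% of all protein-coding genes. For nuclear processing and export these were Dgcr8 (4.65-fold), the helicase gene Ddx5 (7.04-fold), Khsrp (6.4-fold), Xpo5 (6.38-fold) and Ran (9.3-fold). For Dicer cleavage they were Dicer1 (6.25-fold, 227 bp from its upper end) and the Dicer partner gene Prkra (5.04-fold). The Argonaute genes Ago1 (8.48-fold) and Ago2 (5.2-fold, with 13 summits inside the gene) had them as well. So did Tut4 (5.46-fold) and Tut7 (6.55-fold), which add uridines to precursors, and Zc3h12a (6.86-fold), a nuclease that T cell activation curbs. Drosha had a summit inside the gene but none within 1000 bp of an end, and Tarbp2 and Ago3 had none at their ends either. Ago4, Lin28a, Lin28b, Ddx17 and Srsf3 had no summit in the gene or at an end, and are named after their values were seen.

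Members were spread over all 19 autosomes. Chromosome 11 had 11 of its 88 microRNA genes in the set and chromosome 8 had 8 of 56, whereas chromosome 5 had 1 of 58. On chromosome 2, which carries the Sfmbt2 cluster, 7 of 147 were members.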

How the data were processed

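The data are 1 deposited peak list, made from 2 merged Trim33 ChIP-seq libraries of Th17 cells, as its peak names say. The submitters' processing notes name MACS2 2.1.1.20160309, Trim Galore 0.3.7 and Bowtie 1.2.1.1 and the build mm10. The sources used here do not give the settings, the control or the calling threshold. The fold enrichment (a ratio), the −log10 q and the score are the authors' deposited values for each peak, and the score was not used. Library depths are unknown here.

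Coordinates are counted from 1. Summits were joined to genes of RefSeq (GRCm38.p6) in Python 3.11.15 with pandas 2.3.3, and the joining was tested on simulated summits. Named are list members, the 15 highest members, members with an inside summit, clusters, those at the 1000 bp limit and up to 3 genes without a summit of each list. Other members were named for their host genes after their values were seen. Sequences are shown for some of these members and for members that share a seed, which were chosen after seeing the seeds. Genes at the ends of a list's range of distances were named after their values were seen. The members and lists were chosen with earlier results of these data known.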

Additional observations from a re-analysis of the deposited data

How the results depend on the processing

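Keeping the upper part of the list by fold left 49 members with a median fold of 7.35, and keeping the upper part by −log10 q left 47 with a median of 7.68. Both follow from dropping the lower peaks. A window of 2500 bp in place of 1000 gave 148 members, since a wider window takes in more genes. With 2500 bp around coding ends, 69.7% of members had a summit at one, for the same reason. The share at coding ends was lower than 57.9% with the upper part by −log10 q (48.9%), the upper part by fold (49%) and the 2500 bp window around microRNA genes (49.3%), and 62.5% with 500 bp. A window of 500 bp gave 56 members, and counting any base of a peak gave 81. Chosen after seeing the data were leaving out the Sfmbt2 cluster (73 members) and, likewise, joining genes at most 10 kb apart (70 loci). The share in coding hosts ran from 57.1% to 70.3% over the alternatives. No paired analysis was possible because replicates were merged before peaks were called. Depth and replicate spread are unknown, so a peak's height has no error here.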

Other observations

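Outside the chromosomes of the set, 3 of the 92 microRNA genes on X and Y had a summit within 1000 bp, all on X. Mir718 and Mir5132 shared a 4.47-fold summit, which lay inside Mir718 and 262 bp from Mir5132. Mir361 had an 8.37-fold summit at 146 bp.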
